A study of Mus musculus with 16 samples.

Results

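The transcriptomes of liver and quadriceps were compared in mice that had received a control vector, to describe what set a hepatocyte-rich organ apart from a fast-twitch limb muscle before any effect of the Yap1S5A vector. The comparison used 8 of the 16 libraries of the series, 4 of GFP liver and 4 of GFP quadriceps, chosen by their labels. All were male C57BL6/J mice aged 12 to 14 weeks, sampled at day 7 after AAV-DJ8-TGB-EGFP, an adeno-associated viral vector that carries EGFP. The mice are therefore vector-treated controls and not untreated animals, and the labels do not spell out TGB. The other 8 libraries came from livers and quadriceps of mice given AAV-DJ8-TGB-Yap1S5A, which carries a YAP1 mutant, and enter only the last comparison. The treatment text attached to every library describes sham surgery and partial hepatectomy, which neither the titles nor the genotype labels mention, and which treatment these mice had beyond the vector could not be settled. Libraries were made from total RNA of frozen bulk tissue with the Ion Total RNA-Seq kit. In bulk tissue, fewer cells of a type and less RNA per cell cannot be told apart.

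Hepatocytes make most plasma proteins, detoxify ammonia through the urea cycle, release glucose between meals, and clear drugs and bile acids through cytochrome P450 enzymes. Skeletal muscle fibres are built of repeated sarcomeres of myosin and actin, are driven by calcium released from the sarcoplasmic reticulum, and buffer ATP with phosphocreatine. The organs share most central pathways but often run the same step with different gene products, and these isozymes are the textbook case of tissue-specific metabolism.

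The libraries carried the transcripts of their labelled tissue. Alb, which encodes albumin, had 100579, 91993, 86655 and 87097 CPM (counts scaled to a common library size with TMM factors) in the 4 GFP livers, against 27.1, 14.4, 10.8 and 15.7 CPM in the 4 GFP quadriceps. Acta1, the skeletal muscle alpha-actin, had 1.86, 14.3, 47.2 and 15.5 CPM in GFP livers, against 33197, 37970, 32893 and 38995 CPM in GFP quadriceps. The tissues did not overlap in either gene, and no library went against its label. Alb was higher in liver by 12.39 on the log2 scale (SE 0.73, adjusted p = 1.7e-09 by edgeR's quasi-likelihood test), and Acta1 was lower by -10.82 (SE 0.97, adjusted p = 2.0e-07). Hnf4a, a transcription factor that maintains hepatocyte identity, had 711, 588, 633 and 814 CPM in livers and 0.188, 0, 0.0663 and 0.256 CPM in quadriceps. Ckm, the muscle creatine kinase, had 1.48, 17, 56.4 and 19.9 CPM in livers and 38399, 40446, 35721 and 45417 CPM in quadriceps.

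Totals ran between 13817718 and 15589362 counts in GFP livers and between 15711242 and 16897004 in GFP quadriceps. The muscle transcriptome was the more concentrated one. With Rn45s, a ribosomal RNA gene, left out of genes and totals, the 10 most abundant genes took 18.2 to 20.1% of counts in livers. In quadriceps they took 28.4 to 32.7%. Rn45s itself took 0.692% of all counts in GFP liver replicate 2 and up to 9.71% in the other livers, against 8.3 to 14.5% in quadriceps. A pair of libraries stood apart in quadriceps: replicates 2 and 3 had many more transcripts of slow fibres than replicates 1 and 4. GFP liver replicate 3 held the most muscle transcripts of the 4 livers. For several results below, values without these libraries are also given. All p-values measure the spread between these samples; the labels do not say outright that each came from a separate mouse.

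The promoters of 6 genes that mark the ends and the middle of this comparison are shown first: Alb for liver, Myh4 (fast myosin heavy chain IIb) and Acta1 for muscle, the glycogen phosphorylases Pygl of liver and Pygm of muscle as an isozyme pair, and Eef2, an elongation factor at a similar level in both organs. Each is the stretch from 250 bases before to 50 bases after the RefSeq start on GRCm38.p6 (mm10), written 5′ to 3′ on the gene's strand. They lie at chr5:90460620-90460919 (plus strand), chr11:67237562-67237861 (plus), chr8:123894726-123895025 (minus), chr12:70227634-70227933 (minus), chr19:6384158-6384457 (plus) and chr10:81176381-81176680 (plus). Capitals mark every match, on either strand, to one of 9 motifs: the TATA box TATAAA, the HNF1 site core GTTAAT, the HNF4 site CAAAGTCCA, the C/EBP site TTGCNNAA, the MEF2 site (CTA, any 4 bases, TAG), the E-box CAGCTG, the GC box GGGCGG, and the NRF1 site and the CArG box of serum response factor by name.
Alb: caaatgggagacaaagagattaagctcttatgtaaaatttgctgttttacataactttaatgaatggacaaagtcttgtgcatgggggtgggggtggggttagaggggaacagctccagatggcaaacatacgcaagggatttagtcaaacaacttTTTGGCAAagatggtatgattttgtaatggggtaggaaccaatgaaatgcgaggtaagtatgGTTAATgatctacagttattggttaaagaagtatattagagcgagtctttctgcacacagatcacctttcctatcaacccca
Myh4: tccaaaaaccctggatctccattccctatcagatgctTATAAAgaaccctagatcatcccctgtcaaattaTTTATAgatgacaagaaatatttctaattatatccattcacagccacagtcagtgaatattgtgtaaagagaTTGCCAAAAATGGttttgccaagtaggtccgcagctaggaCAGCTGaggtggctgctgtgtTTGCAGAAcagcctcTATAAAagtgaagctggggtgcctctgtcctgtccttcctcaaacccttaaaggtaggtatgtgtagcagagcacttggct
Acta1: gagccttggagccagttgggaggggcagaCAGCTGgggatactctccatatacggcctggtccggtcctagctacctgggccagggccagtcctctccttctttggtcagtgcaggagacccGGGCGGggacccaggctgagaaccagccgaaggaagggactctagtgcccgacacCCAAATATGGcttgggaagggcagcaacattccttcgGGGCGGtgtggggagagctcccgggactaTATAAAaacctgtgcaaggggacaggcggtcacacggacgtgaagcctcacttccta
Pygl: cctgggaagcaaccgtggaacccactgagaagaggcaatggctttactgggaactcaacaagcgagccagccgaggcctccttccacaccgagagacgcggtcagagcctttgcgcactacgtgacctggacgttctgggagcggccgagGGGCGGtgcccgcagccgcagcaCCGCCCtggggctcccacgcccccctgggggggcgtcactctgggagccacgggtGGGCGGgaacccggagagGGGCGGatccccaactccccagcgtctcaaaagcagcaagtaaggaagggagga
Pygm: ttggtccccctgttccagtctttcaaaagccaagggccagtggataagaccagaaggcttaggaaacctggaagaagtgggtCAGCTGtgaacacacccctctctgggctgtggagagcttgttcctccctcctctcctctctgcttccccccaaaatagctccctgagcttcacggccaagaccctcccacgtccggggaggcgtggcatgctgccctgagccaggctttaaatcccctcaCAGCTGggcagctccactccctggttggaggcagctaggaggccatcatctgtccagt
Eef2: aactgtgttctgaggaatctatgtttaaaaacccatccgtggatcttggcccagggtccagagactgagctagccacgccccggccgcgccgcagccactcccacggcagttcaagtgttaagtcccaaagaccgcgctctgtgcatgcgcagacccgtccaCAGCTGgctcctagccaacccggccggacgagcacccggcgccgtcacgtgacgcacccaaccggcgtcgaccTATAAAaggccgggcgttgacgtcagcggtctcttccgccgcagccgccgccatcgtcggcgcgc
Alb held a C/EBP match at -94 and an HNF1 match at -32 from the start, and 3 CpG dinucleotides. Myh4 held 1 CpG, a CArG match at -104 that overlaps a C/EBP match at -107, an E-box at -67 and a TATA box at -31. It also held TATA boxes at -213 and -179 and a C/EBP match at -46. Acta1 held an E-box at -221, a CArG match at -73, a TATA box at -7, GC boxes at -128 and -36, and 12 CpGs. Pygl held 4 GC boxes and 22 CpGs, whereas Pygm held a pair of E-boxes and 4 CpGs. Eef2 had the most CpGs of the 6, with 34, and also held an E-box at -88 and a TATA box at -15. A match is a description of these letters and not evidence of binding.

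Promoters were also compared by class. RefSeq promoters whose start lay within 500 bases of the counted gene model were matched for 9523 of 12846 tested genes. These included 689 of 945 genes at least 32-fold higher in liver, 537 of 783 at least 32-fold lower in liver, and 2857 of 3710 at a similar level. The median promoter held 6 CpGs in the class higher in liver, 10 in the class lower in liver, 23 in the class at a similar level and 21 over all genes. A CpG observed-to-expected ratio over 0.6, a usual mark of a CpG island, was found in 23.9% of the class higher in liver and 37.1% of the class lower in liver, against 86.1% at a similar level and 71.0% over all genes. TATAAA stood in 18.3% and 16.6% of the classes higher and lower in liver, against 5.6% at a similar level and 7.81% of all promoters. GTTAAT stood in 13.2% of promoters of the class higher in liver, 4.1% of the class lower in liver and 4.25% of all. CAGCTG stood in 17.3% of the class higher in liver, 25.5% of the class lower in liver and 15% of all, and the MEF2 site in 3.19%, 7.82% and 3.1%. TTGCNNAA stood in 16.5%, 9.68% and 8.56%, and CAAAGTCCA in 2.61%, 0.372% and 0.504%. The CArG box stood in 1.74%, 3.17% and 1.34%. GGGCGG, the GC box, ran the other way, with 34.1% and 46% in the classes higher and lower in liver against 64.2% of all promoters, and the NRF1 site stood in 0.581%, 0.372% and 2.13%. These shares are given without a test.

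Most genes differed between the organs. Of 12865 genes tested of 13701 in the count table, 5144 (40.0%) were higher in liver and 4993 (38.8%) lower, at an adjusted p under 0.05, 78.8% in all. At least 2-fold differences among these numbered 3628 genes higher (28.2%) and 3481 lower (27.1%), and 946 genes (7.35%) were at least 32-fold higher and 784 (6.09%) at least 32-fold lower. All 4 livers lay above all 4 quadriceps in 4837 genes (37.6%) and below them in 4736 (36.8%), together 74.4%. A further group of 3715 genes (28.9%) was at a similar level, meaning that the 95% interval of the difference lay within 2-fold either way, and 1549 of these (12.0% of all tested) nonetheless passed the test. Only 562 genes (4.37%) were neither called nor that closely bounded. The median log2 difference over all tested genes was 0.03; it moved to -0.17 with upper-quartile factors and to 0.13 with library size alone.

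**Figure D1:**
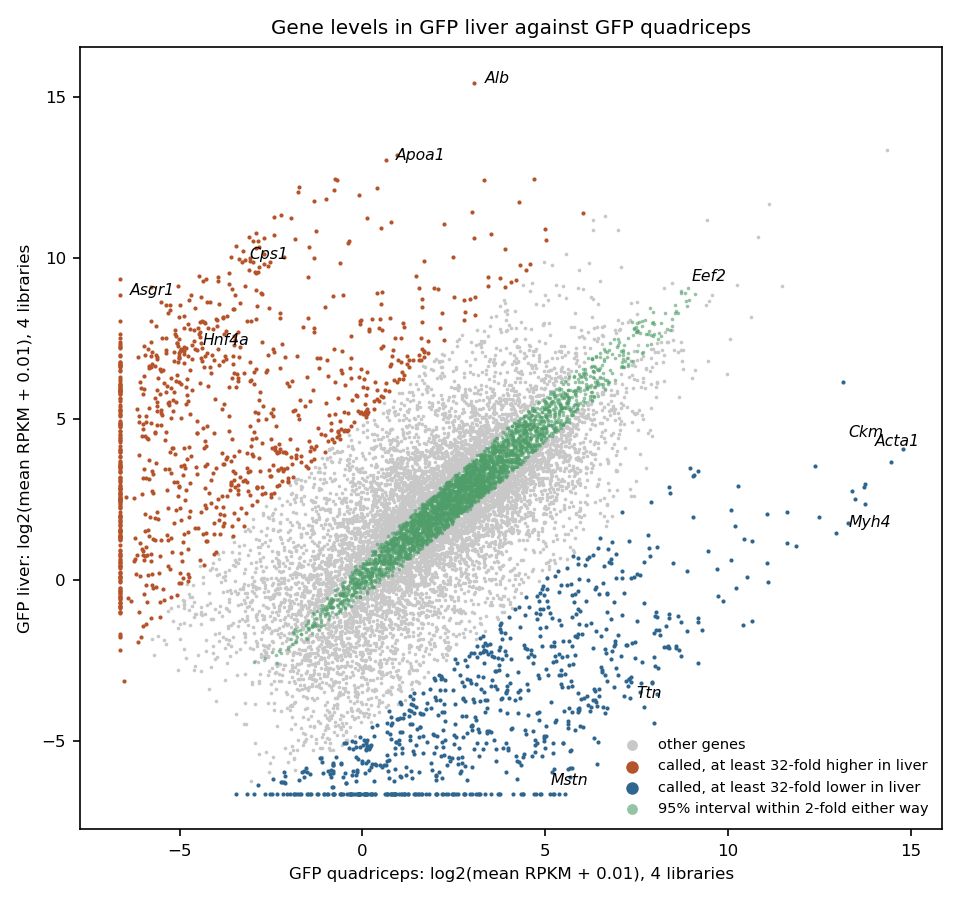
Mean RPKM of each tested gene on log2 axes, GFP livers on the vertical axis and GFP quadriceps on the horizontal one, with 1 point per gene and genes at 0 lined up along the edges. Alb, at 44827 RPKM in livers and 8.32 in quadriceps, lies at the top, Acta1 and Ckm lie at the far right, and the genes at a similar level, such as Eef2 with 498 and 422 RPKM, form the diagonal band.

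The largest differences were on-off patterns. Asgr1 (chr11:70054124-70057895, mm10), a subunit of the hepatocyte receptor that clears asialoglycoproteins, had 629, 517, 715 and 495 CPM in livers and no count in any quadriceps. Its level was at least 12610-fold higher in liver, taking 3 counts over the 4 quadriceps as the floor. Other genes without a count in quadriceps included Acsm1, an acyl-CoA synthetase (at least 8750-fold higher), Pklr, the liver pyruvate kinase (7415), Gcgr, the glucagon receptor (6552), Agxt, which detoxifies glyoxylate (6074), and Hao1, which makes glyoxylate (4414). Apoc4, Sds, Pipox, Apon and Bhmt2 had floors between 4909 and 7227. Cyp1a2, a P450 of caffeine metabolism, had 1 count over all quadriceps, which gives a ratio of 65928 (95% counting interval 11832 to 2604066).

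In the other direction, Mstn, which encodes the muscle growth inhibitor myostatin, had no count in any liver and 99.1, 78.6, 57.7 and 77.8 CPM in quadriceps. It was at least 1627-fold lower in liver. Floors for Myadml2, Kcng4, 2310065F04Rik, Yipf7, Mlip and 9330159F19Rik ran between 818 and 2227. The sarcoglycan gene Sgca, of the dystrophin complex, had too few liver counts for a firm fold, with a quadriceps-to-liver ratio of 9238 (95% counting interval 1658 to 364931). Klhl31 had a ratio of 6916 (2366 to 33537), and Mybph, a myosin-binding protein, a fitted log2 difference of -12.65 on 4 liver counts, with exon bases shared with Adora1 on the opposite strand. In all, 209 tested genes had no count in any quadriceps and 136 none in any liver.

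Levels per length were ranked among protein-coding genes in each tissue. In liver, Alb averaged 44827 RPKM (SD 3166, n = 4), followed by the major urinary protein Mup3 at 9452, Apoa1 at 8374, Apoe at 5650, Ahsg at 5566, Serpina3k at 5544 and transferrin (Trf) at 5540 RPKM. Mup20, Serpina1e, Serpina1c and Apoa2 held 4203 to 4746 RPKM. The Mup and Serpina1 genes are near-identical copies whose reads the counting could have split, so single members are uncertain. In quadriceps, Ckm led with 28266 RPKM, then Acta1 with 22765, Myh4 with 13864, the fast light chain Mylpf with 13739, fast troponin C (Tnnc2) with 13611, the calcium pump Atp2a1 with 11404 and fast troponin T (Tnnt3) with 10835. Pvalb, a calcium buffer of fast fibres, had 9964 RPKM and the glycolytic aldolase Aldoa 9081.

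Every measured member of 5 hepatocyte lists was higher in liver. These were 34 of 34 plasma proteins and apolipoproteins, 8 of 8 urea cycle genes, 22 of 22 genes of amino acid breakdown, 7 of 7 of gluconeogenesis and 18 of 18 bile acid and P450 genes, against 40.0% of all tested genes. Their median log2 differences were 12.52, 10.49, 11.42, 8.22 and 12.02, against 0.03 over all genes. With genes at 0 set to their bound, the P450 median was 11.94.

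In the urea cycle, Cps1, which fixes ammonia in the first step, had 5332, 4851, 6400 and 5800 CPM in livers and 0.438, 0.461, 0.133 and 0.896 CPM in quadriceps, a log2 difference of 13.47 (SE 0.49). Arg1, the arginase that releases urea, differed by 13.81 (SE 0.46), Otc by 12.41 (SE 0.40) and Asl by 6.97 (SE 0.30). For gluconeogenesis, Pck1, the PEP carboxykinase, had 1873, 1656, 3187 and 3252 CPM in livers and 2.5, 8.31, 12.6 and 10.1 CPM in quadriceps, and was higher by 8.22 (SE 0.53). Of amino acid catabolism, Gnmt, the glycine methyltransferase, differed by 10.34 (SE 0.37), Hpd of tyrosine breakdown by 12.46 (SE 0.49), and Tdo2 of tryptophan breakdown by 12.40 (SE 0.44). Cyp2e1, the ethanol-inducible P450, had 6027, 4283, 3430 and 5480 CPM in livers and 6.07, 8.77, 13.9 and 26.4 CPM in quadriceps, a difference of 8.45 (SE 0.53).

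Hepatocyte transcription factors were higher in liver for 24 of 25 members, against 40.0% of all tested genes. Their median was 9.43, or 8.53 with genes at 0 at their bound. They ranged from on-off to graded. Hnf4a averaged 158 ± 22.8 RPKM in livers and 0.0293 ± 0.0265 RPKM in quadriceps (SD, n = 4 each). Cebpa, a driver of hepatocyte differentiation, averaged 184 ± 17 RPKM in livers and 2.06 ± 0.924 RPKM in quadriceps, a log2 difference of 6.49 (SE 0.29). Mlxipl, the carbohydrate-responsive factor ChREBP, differed by only 2.44 (SE 0.14), with 84.1 to 98.3 CPM in quadriceps.

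Muscle lists mirrored this. All 13 fast-fibre sarcomere genes, 30 of 30 of the thin filament, Z-disc and M-band, 19 of 19 of excitation and calcium release and 7 of 7 of phosphocreatine, purine and oxygen buffering were lower in liver, against 38.8% of all tested genes. Their medians were -10.76, -9.58, -10.76 and -10.54. Myh4 had 2.89, 21.2, 74.5 and 25.1 CPM in livers and 102974, 72758, 71897 and 87162 CPM in quadriceps. It differed by -11.40 (SE 1.07, adjusted p = 2.9e-07), or -12.31 without GFP liver replicate 3. Without that library Acta1 differed by -11.72 and Ckm by -11.60, so the depth of the difference in abundant muscle genes rests in part on 1 liver. Casq1, the calcium store of the reticulum, averaged 0.404 ± 0.392 RPKM in livers and 1632 ± 192 RPKM in quadriceps. Des, an intermediate filament that liver stellate cells also make, had 4.62, 8.94, 15.9 and 9.51 CPM in livers, against 3140 to 3781 CPM in quadriceps.

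Slow-fibre genes divided the quadriceps libraries. Myh7, the slow myosin heavy chain (chr14:54970688-54994549), had 2.44, 1.28, 4.49 and 0.839 CPM in livers and 17.6, 530.5, 891 and 35.9 CPM in quadriceps. Myoglobin (Mb), the oxygen store, had 0.835, 0.973, 4.61 and 1.26 CPM in livers and 422, 1859, 2570 and 624 CPM in quadriceps. Replicates 2 and 3 were the high quadriceps in both, and all livers lay below all quadriceps. Of 10 measured slow-fibre genes, 8 were lower in liver, against 38.8% of all tested genes. Their median was -7.10, and -3.10 without the high libraries. The exceptions were Csrp3 and Tpm3. Csrp3, the muscle LIM protein (chr7:48830398-48848051), had 22, 20.7, 22.9 and 22.5 CPM in livers and 3, 48.7, 139 and 7.75 CPM in quadriceps. The livers lay within the range of the quadriceps (-1.17, SE 1.08, adjusted p = 0.35). Without quadriceps replicates 2 and 3, Csrp3 was higher in liver by 2.02 (adjusted p = 7.9e-05). Tpm3, listed as a slow tropomyosin gene, had 33.1, 40.9, 40.5 and 33.2 CPM in livers and 12.8, 96.4, 159.5 and 16.2 CPM in quadriceps. It did not pass edgeR's test (-0.95, SE 0.83, adjusted p = 0.32). Counts per gene do not tell its slow-muscle transcripts from any other forms. Without quadriceps replicates 2 and 3, Tpm3 was higher in liver by 1.34 (adjusted p = 3.6e-05).

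Muscle transcription factors were lower in liver for 18 of 18 members, against 38.8% of all tested genes. Their median was -8.57, or -7.75 with bounds. Tbx15, a factor of glycolytic fibres, averaged 0.0543 ± 0.0385 RPKM in livers and 96.3 ± 7.06 RPKM in quadriceps, and Mef2c 0.323 ± 0.0648 and 84 ± 5.22 RPKM. Its relative Mef2d was present in both organs, at 17 to 22.1 CPM in livers and 141 to 166 CPM in quadriceps, a difference of -3.01 (SE 0.13). Genes that mark the position of the hindlimb along the body followed, with 7 of 8 lower and a median of -8.18, or -7.07 with bounds. Hoxc10 had 0, 0, 0.253 and 0 CPM in livers and 131, 123, 96.9 and 118 CPM in quadriceps. Hoxc11 had no count in liver and was at least 45.3-fold lower there. Of 10 neuromuscular junction genes, 9 were lower, with a median of -6.36, or -6.05 with bounds. Rapsn, which clusters acetylcholine receptors, had 1 liver library with any count and 29.3 to 35.6 CPM in quadriceps. Lrp4, the agrin receptor of the muscle side, went the other way, with 35.3, 21.3, 35.5 and 39.8 CPM in livers and 10.6, 11.8, 13.8 and 13 CPM in quadriceps (1.42, SE 0.18, adjusted p = 6.3e-06).

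**Figure D2:**
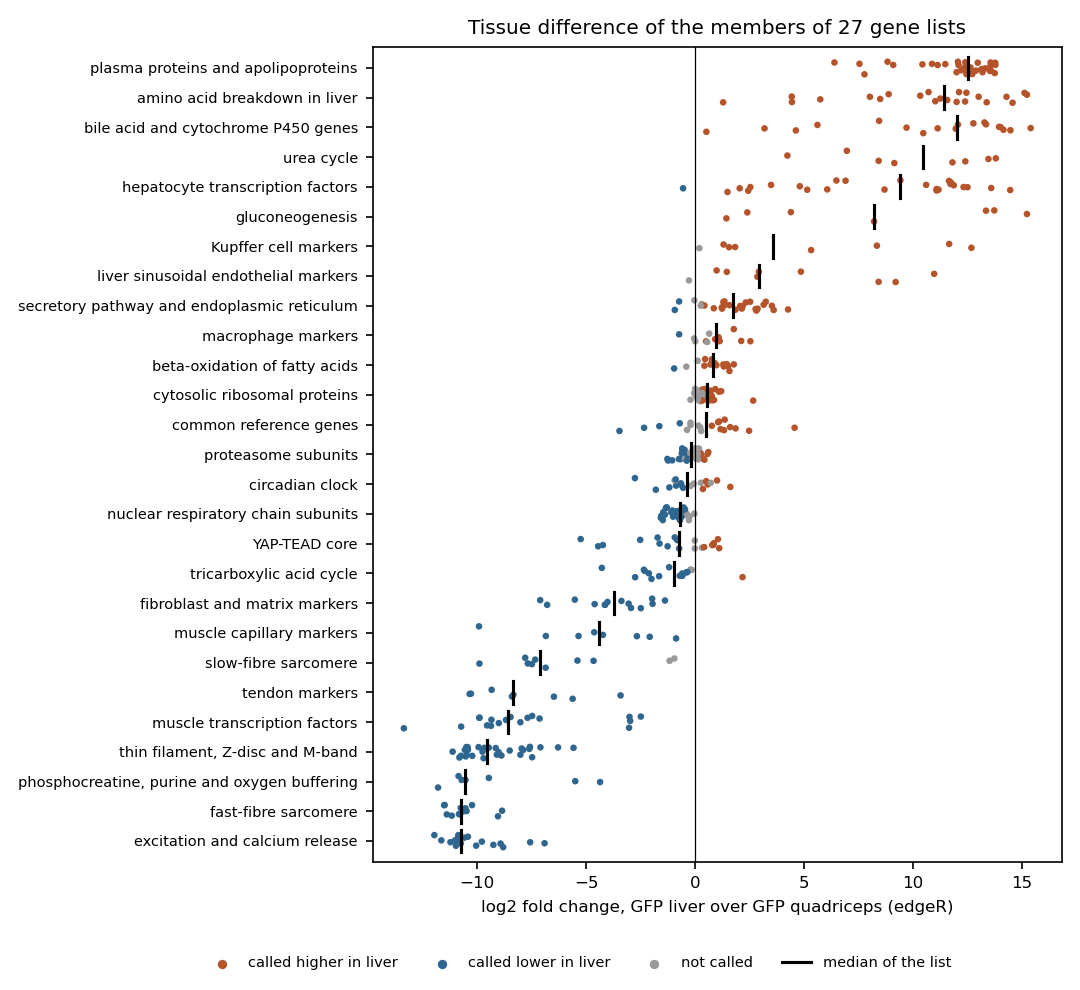
Log2 fold change of GFP liver over GFP quadriceps for the members of 27 gene lists, 1 point per gene, coloured by its call, with a black bar at each list's median. Hepatocyte lists lie to the right, with medians of 8.22 to 12.52, the muscle lists to the left, with the fast-fibre median at -10.76, and ribosomal, proteasome and mitochondrial lists near 0.

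In 34 of 42 isozyme pairs the leading form differed between all livers and all quadriceps. Each of 43 pairs listed a form taken as that of liver or many tissues, then a form taken as that of muscle. The share of the first form was its RPKM over the summed RPKM of the pair. Both forms were tested in 42 pairs. The share of the first form was above 50% in every liver and below 50% in every quadriceps in 34 pairs, and it averaged above 90% in liver and below 10% in quadriceps in 25. The first form was called higher and the second lower in liver in 30 pairs, each against backgrounds of 40.0% and 38.8% for the single calls.

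Glucose entry and glycolysis showed it step by step. Slc2a2, the liver glucose transporter GLUT2, made up 99.4, 99.8, 99.2 and 99.8% of its pair with Slc2a4 (insulin-responsive GLUT4) in livers, and 0.0226, 0.0106, 0 and 0.0129% in quadriceps. Every liver thus used almost only one form, and every quadriceps the other. The pairs further down had mean shares in liver and quadriceps of 98.9 and 0.158% for the mutases Pgam1 and Pgam2, and 96.4 and 0% for the pyruvate kinases Pklr and Pkm. Phosphofructokinase was less exclusive: Pfkl made up 53.6, 56.4, 56.1 and 56.7% in livers and 0.165, 0.218, 0.179 and 0.152% in quadriceps. The liver held little of either form, with 9.5 ± 1.51 RPKM of Pfkl, against 1235 ± 108 RPKM of Pfkm in quadriceps. The gluconeogenic Fbp1 made up 100% of its pair with Fbp2 in liver on average and 0.199% in quadriceps.

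Glycogen enzymes followed the same rule. Pygl made up 99.7, 99.3, 98 and 99.2% of glycogen phosphorylase transcripts in livers and 0.0233, 0.0401, 0.101 and 0.0218% in quadriceps. The mean share of Gys2 in glycogen synthase was 98.8% in liver and 0.0897% in quadriceps, and that of Ppp1r3b, a glycogen-targeting subunit, against Ppp1r3a 99.9 and 0.772%. In the phosphorylase kinase, Phka2 held 80.7 and 0.767% of the alpha subunit and Phkg2 99.5 and 2.08% of the gamma subunit. Phkg2 and Phkg1 each share exon bases with a gene on the opposite strand, and the strand setting of the counting was not given in the sources used here.

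Pairs of the respiratory chain, ion pumps and translation differed too. The mean share of Cox6a1 against the heart and muscle form Cox6a2 was 99.8% in liver and 2.85% in quadriceps, and of Cox8a against Cox8b 99.8 and 3.58%. Cox7a2 made up 97.8% of its pair in liver on average, and kept 22.4, 34.3, 31.3 and 27.2% in quadriceps. Slc25a5 made up 98.4 and 0.735% of the adenine nucleotide carrier pair with Slc25a4. The calcium pump Atp2a2 made up 98.2, 88.4, 62 and 88.7% of its pair with Atp2a1 in livers and 0.0527, 0.274, 0.507 and 0.07% in quadriceps, and liver replicate 3, with the most muscle transcripts, was the low one. Elongation factor Eef1a1 gave way to Eef1a2, with 100 and 9.6%, and the ribosomal protein gene Rpl3 to Rpl3l, with 99.8 and 8.38%. The monocarboxylate transporters Slc16a1 and Slc16a3 gave 98.4 and 5.65%, and the AMP deaminases Ampd2 and Ampd1 98 and 0.234%.

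Several pairs kept the same leading form in both organs. Ldha led Ldhb, with 99.6, 99.4, 99 and 99.7% in livers and 98.8, 94, 90.5 and 98.2% in quadriceps, the lower quadriceps being replicates 2 and 3. Both genes were lower in liver (-2.46 for Ldha and -5.50 for Ldhb). Since Ldha also led in quadriceps, Ldhb is not read as the muscle form. Acaca stayed the minority against Acacb, with 26.1% in liver and 3.49% in quadriceps, and Prkaa1 against Prkaa2, with 18.6 and 7.25%. Caveolin, by contrast, changed its leading form by RPKM, but was near even in muscle. Cav1 made up 100, 100, 93.2 and 100% of its pair with Cav3 in livers and 46.7, 47.4, 48.2 and 46.1% in quadriceps. By counts not divided by length, Cav1 led in both organs, with mean shares of 99.3 and 68%. The pair summed to only 0.82 RPKM in livers on average, against 70.8 RPKM in quadriceps. Both genes were lower in liver (-5.35 for Cav1 and -10.82 for Cav3), so Cav1 is not read as a liver form. Cpt1a made up 99.9% in liver and 83.6% in quadriceps, although Cpt1b is the known muscle form. Cpt1b had only 0.813, 1.73, 1.46 and 0.768 CPM in quadriceps; RefSeq places the RNA gene Gm44502 over its whole model, so its count is uncertain. In 2 pairs the share of the first form was lower in all livers than in all quadriceps: Gpd1 against Gpd1l, with 93.8 and 96.7%, and Pgm2 against Pgm1, with 98.8 and 99.9%. Gpd1 and Pgm2 were themselves lower in liver (-0.78 and -2.65), while Gpd1l and Pgm1 did not pass the test. The second forms of these pairs are therefore not read as muscle forms. Pgm1 and Pgm2 are the symbols as deposited, and their match to current gene names was not checked. The liver shares of Lpin2 against Lpin1 also varied, at 38.9, 62.3, 39.2 and 66.7%, and Lpin1 itself had 648, 199.5, 733 and 199 CPM in livers.

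**Figure D3:**
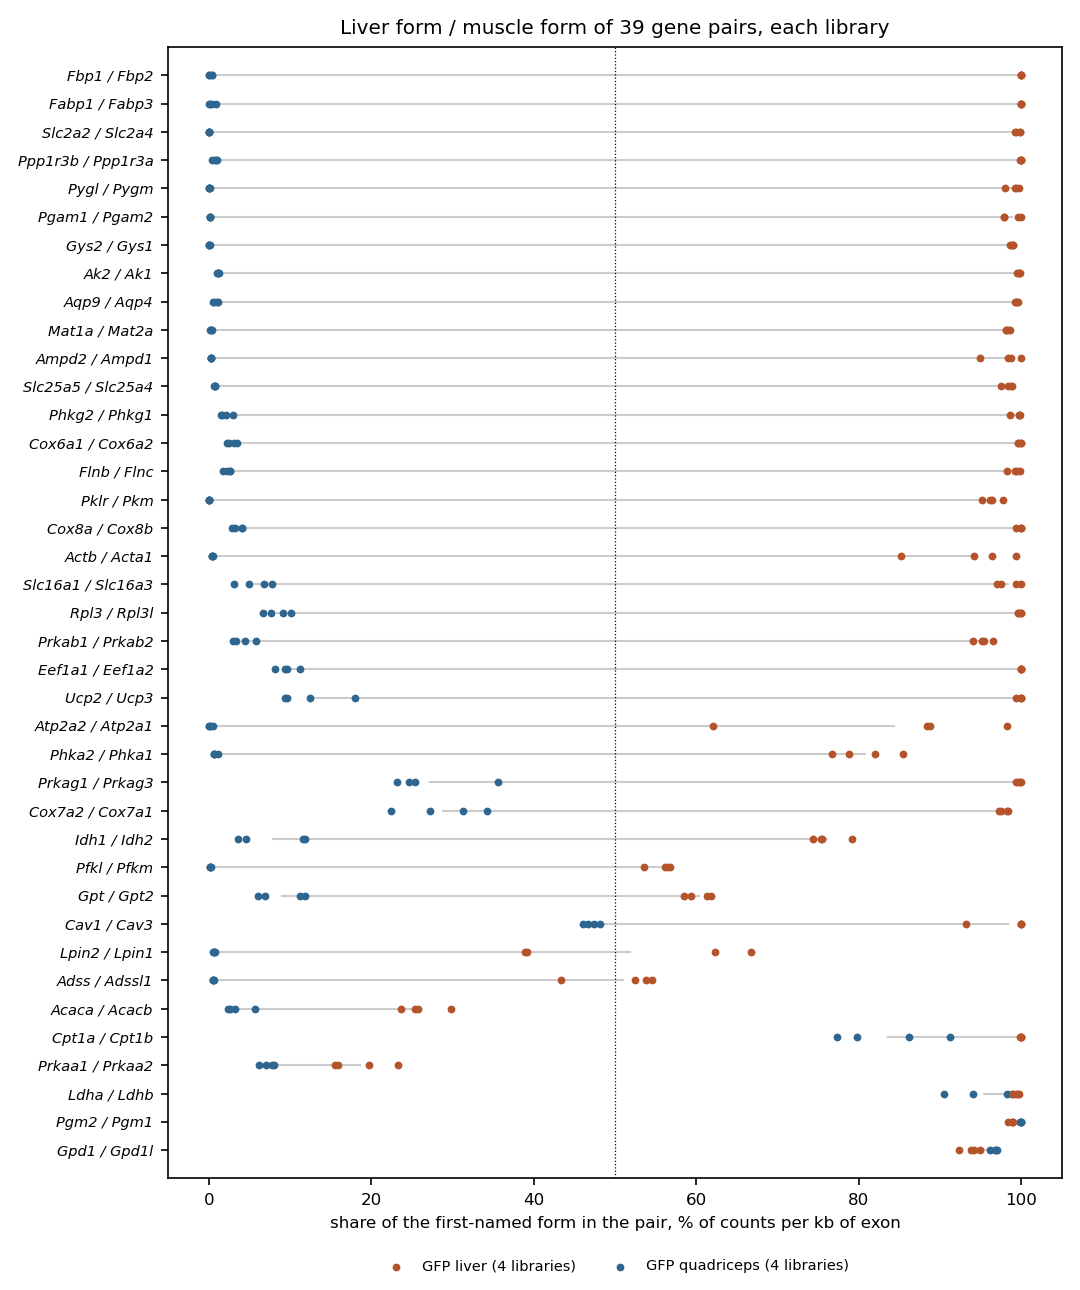
Share of the first-named form in each of 39 isozyme pairs, in percent of the pair's RPKM, 1 point per library for GFP livers and GFP quadriceps, with a grey line joining the tissue means and a dotted line at 50%. Most pairs have livers near 100 and quadriceps near 0, while lactate dehydrogenase stays at 90.5% or more in every library.

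Genes of ketone body, creatine and carnitine metabolism were compared next. For ketone bodies, Oxct1, needed to burn them and known to be lacking in hepatocytes, had 1.73, 3.22, 3.54 and 1.54 CPM in livers and 293, 375, 412 and 365 CPM in quadriceps (-7.16, SE 0.27). Oxct1 shares exon bases with BC037032 on the opposite strand. All 4 synthesis genes were higher in liver, against 40.0% of all tested genes, with a median of 2.93. Of 3 genes of use, Acat1 and Bdh1, which serve both directions, were higher and Oxct1 lower. Bdh1 had 264, 184, 169 and 236 CPM in livers and 3.56, 43.3, 57.3 and 8.39 CPM in quadriceps (2.92, SE 0.85, adjusted p = 0.017), again highest in replicates 2 and 3. Without those it differed by 5.14.

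For creatine, the phosphate store of muscle, Gamt, the last enzyme, had 181, 199, 191 and 150 CPM in livers and 8.57, 8.59, 8.28 and 15.6 CPM in quadriceps (4.13, SE 0.21). Gatm, the first enzyme, was low in both, with 4.5, 6.08, 3.41 and 4.55 CPM in livers and 2.31, 6.63, 3.18 and 3.07 CPM in quadriceps, and did not pass the test (0.28, SE 0.31, adjusted p = 0.42). For carnitine, needed for fatty acid entry into mitochondria, Bbox1, the last enzyme, was higher in liver by 9.51 (SE 0.38) and Aldh9a1 by 5.37 (SE 0.18). Of 27 genes of hormones and receptors, 19 were higher in liver and 7 lower, against 40.0% and 38.8% of all tested genes. Their median was 3.36. Hamp, the iron hormone hepcidin, varied among livers, at 495, 641, 264 and 227 CPM, against 0 to 0.375 CPM in quadriceps. Agt, angiotensinogen, was higher by 5.92 (SE 0.20).

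Mitochondrial pathways differed by less and not all in one direction. Their counts stand against 40.0% higher and 38.8% lower over all tested genes. Genes of the tricarboxylic acid cycle were lower in liver for 13 of 16, higher for 1 and not called for 2, with a median of -0.94. Mdh2, the mitochondrial malate dehydrogenase, averaged 140.1 ± 10.2 RPKM in livers and 441 ± 42.7 RPKM in quadriceps (SD, n = 4 each), a difference of -1.65 (SE 0.14). The exception was Suclg2, the GTP-forming subunit of succinyl-CoA ligase, with 167, 173, 175 and 194 CPM in livers and 37.5, 37, 45.1 and 36.9 CPM in quadriceps (2.18, SE 0.12). Nuclear-encoded respiratory chain subunits were lower for 28 of 33 and higher for none, with a median of -0.71. Atp5b, the catalytic ATP synthase subunit, had 1170, 1002, 1230 and 916 CPM in livers and 2025, 2478, 2642 and 2041 CPM in quadriceps (-1.09, SE 0.21). Fatty acid beta-oxidation ran the other way, with 13 of 16 higher, 1 lower and a median of 0.84. Without quadriceps replicates 2 and 3, 10 tricarboxylic acid cycle and 23 respiratory chain genes were lower, with medians of -0.82 and -0.60. Beta-oxidation then had 14 higher and 1 lower, with a median of 1.10. Without GFP liver replicate 3, 14 tricarboxylic acid cycle and 32 respiratory chain genes were lower. Acadvl, the very-long-chain acyl-CoA dehydrogenase, had 485, 374, 518 and 503 CPM in livers and 213, 327, 366 and 239 CPM in quadriceps (0.71, SE 0.19, adjusted p = 0.0038), while Hadhb of the trifunctional protein was lower (-0.96, SE 0.16).

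The secretory pathway was higher in liver for 23 of 28 members and lower for 2, against 40.0% and 38.8% of all tested genes. Its median was 1.72. P4hb, a protein disulfide isomerase, had 1399, 1298, 1365 and 1346 CPM in livers and 156, 147, 155 and 149.6 CPM in quadriceps (3.15, SE 0.17), and the chaperones Calr and Hspa5 were higher by 2.53 (SE 0.17) and 2.15 (SE 0.17). The 2 lower members belong to the machinery that brings ribosomes to the membrane: Srp14 (-0.93, SE 0.12) and Srpr (-0.73). Cytosolic ribosomal proteins were higher for 25 of 37 and lower for none, with a median of 0.53. With upper-quartile factors 13 were higher and 1 lower, with a median of 0.33, and without quadriceps replicates 2 and 3, 14 were higher. Proteasome subunits were higher for 6 of 31 and lower for 13, against 40.0% and 38.8% of all tested genes, so the share lower was near that of all genes. Their median was -0.19, and 28 of 31 were within 2-fold by their interval, against 28.9% of all genes; upper-quartile factors gave 2 higher and 17 lower, and leaving out quadriceps replicates 2 and 3 gave 2 and 13.

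Genes of the supporting cells differed by type, with counts to be set against 40.0% higher and 38.8% lower over all tested genes. Kupffer cell markers, of the resident liver macrophages, were higher in liver for 7 of 8, with a median of 3.58. Clec4f had 27.8, 69.2, 52.1 and 59.7 CPM in livers and none in quadriceps (at least 1116-fold higher), and Cd5l was at least 552-fold higher. General macrophage markers were less apart, with 9 of 14 higher, 1 lower and a median of 0.98. C1qb, of complement, had 19.8, 26.2, 23.3 and 29 CPM in livers and 7.76, 15.4, 11.3 and 13 CPM in quadriceps (1.05, SE 0.19). The lower one was Lyz2, a lysozyme (-0.73, SE 0.22, adjusted p = 0.0075), whose call was lost without quadriceps replicates 2 and 3. Sinusoidal endothelial markers were higher for 8 of 9, with a median of 2.93, whereas general endothelial markers were lower for 8 of 12 and higher for none (-1.42) and muscle capillary markers lower for 8 of 8 (-4.43). Clec4g of sinusoids had 25 to 38.2 CPM in livers and a count in 1 quadriceps. Pecam1, found on all endothelium, had 13.9, 12.2, 11.1 and 11.7 CPM in livers and 39.8, 69.7, 57.3 and 48.9 CPM in quadriceps (-2.14, SE 0.17).

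Connective tissue transcripts were lower in liver throughout their lists, with 14 of 14 fibroblast and matrix genes (median -3.70) and 8 of 8 tendon genes (-8.37, or -8.02 with bounds). Over all tested genes 40.0% were higher and 38.8% lower. Col3a1, a fibrillar collagen, had 31.3, 51.6, 33.2 and 33.4 CPM in livers and 246, 339, 272 and 291 CPM in quadriceps (-2.94, SE 0.18). Stellate cell markers were split, with 6 of 10 higher and 4 lower (median 3.02); Ecm1 was higher by 2.75 (SE 0.19), while Des, Dcn, Rgs5 and Pdgfrb, which muscle cells, fibroblasts or pericytes also make, were lower. All 5 bile duct genes were higher (median 4.55), 6 of 8 adipocyte genes lower and Pparg higher (median -4.13), and 4 of 5 Schwann cell genes lower (median -3.67). Adipoq, the fat hormone adiponectin, had 2 counts over all livers and 3.13, 7.33, 12.9 and 12.5 CPM in quadriceps. Pmp22, a peripheral myelin protein, had 1.41, 2.01, 1.96 and 1.75 CPM in livers and 13.8, 31.2, 20.5 and 14.1 CPM in quadriceps, highest in the same replicates 2 and 3 (-3.47, SE 0.29). The part of nerve, fat or fibre type in the differences between quadriceps libraries was not tested. Of satellite cell genes 4 of 6 were lower, and Sdc4 was higher by 4.18 (SE 0.15); of smooth muscle genes 5 of 6 were lower, and Mylk was higher by 2.53 (SE 0.15).

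Small lists of other cells gave few genes. Of red blood cell genes, Alas2, of erythroid haem synthesis, was higher by 5.68 and Bpgm lower by -2.82. Ptprc (CD45) and Cd4 of lymphocytes were higher by 1.43 and 3.75, and Mmp9 of neutrophils was lower (-1.72). Of genes best known from pancreas, kidney or gut, Cela1 was higher in liver by 6.71, Fabp2 by 10.39 and Lgr5, also a gene of pericentral hepatocytes, by 6.73. Cela1 reached 9.3 to 18.6 CPM in livers and Fabp2 22 to 51.5 CPM, highest in replicate 1 for both.

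Genes at a similar level were ranked by level as well. The 10 with the highest level included 4 of the respiratory chain or ATP synthase (Atp5g3, Uqcr11, Atp5e and Atp5d), the mitochondrial protein gene Chchd10, the ferritin chain Fth1, Eef2, Rps14 and the chaperones Hsp90ab1 and Hspa8. Eef2 had 1698, 1439, 1370 and 1672 CPM in livers and 1397, 1283, 1295 and 1256 CPM in quadriceps, groups that overlap (0.24, SE 0.19, adjusted p = 0.25). Atp5g3 averaged 475 ± 54.8 RPKM in livers and 551 ± 86.5 RPKM in quadriceps, and Fth1 531 ± 97.6 and 479.9 ± 48.3 RPKM. A similar level is read from the interval and not from the missed threshold.

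Of 20 genes commonly used as reference genes, 6 were at a similar level, 10 were higher in liver and 4 lower, against 28.9%, 40.0% and 38.8% of all tested genes. The share at a similar level was thus near that of all genes. Gapdh had 942, 765, 788 and 883 CPM in livers and 4237, 4329, 3925 and 4583 CPM in quadriceps, with no overlap (-2.34, SE 0.23, adjusted p = 3.8e-07). B2m, of class I antigen presentation, had 953, 1417, 702 and 781 CPM in livers and 39.7, 41.8, 43.5 and 37.5 CPM in quadriceps (4.57, SE 0.24). Ppia was higher by 2.48, Gusb by 1.61, Ywhaz by 1.36, Hprt by 1.33, Rpl13a by 1.17, Rps18 by 1.10, Actb by 1.06 and Tubb5 by 0.77. Tfrc was lower (-3.47), as were Pgk1 (-1.64) and Sdha (-0.70). Tbp (0.28), Eef2 (0.24), Polr2a (-0.21), Rplp0 (-0.21) and Hsp90ab1 (-0.37) did not pass the test and were within 2-fold. With upper-quartile factors the number lower was 7.

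**Figure D4:**
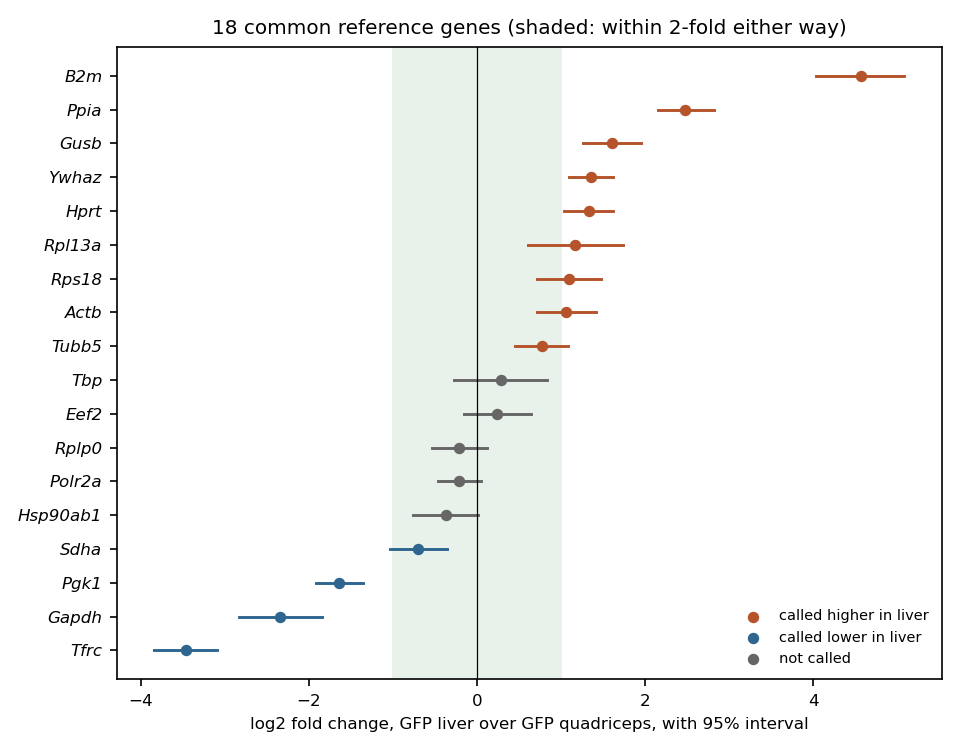
Log2 fold change of GFP liver over GFP quadriceps (points) with its 95% interval (lines) for 18 common reference genes, coloured by call, with the range within 2-fold shaded. B2m lies farthest to the right at 4.57 and Tfrc farthest to the left at -3.47, while Eef2, Tbp, Polr2a, Rplp0 and Hsp90ab1 have intervals inside the shaded range.

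Some regulators are present in both organs. Of 18 circadian clock genes, 5 were higher in liver and 8 lower, against 40.0% and 38.8% of all tested genes, with a median of -0.37; upper-quartile factors gave 2 and 9, and leaving out quadriceps replicates 2 and 3 gave 3 and 8. Nr1d1, which encodes REV-ERB alpha, had 209, 179.6, 138 and 151 CPM in livers and 207, 231, 179 and 159 CPM in quadriceps and did not pass the test (-0.20, SE 0.16, adjusted p = 0.28). Per2 was higher by 1.01 (SE 0.21) and Hlf by 1.62 (SE 0.15). The time of day of sampling is not in the labels. A list of 19 genes held Yap1, its Hippo pathway regulators, its TEAD partners and targets. Of these, 6 were higher and 10 lower, against the same 40.0% and 38.8%, with a median of -0.73. Without quadriceps replicates 2 and 3, 5 were higher and 8 lower, with a median of -0.41. Yap1 itself had 61.3, 62.8, 58 and 69.4 CPM in livers and 68.4, 65.5, 58 and 61.3 CPM in quadriceps (-0.01, SE 0.11, adjusted p = 0.94), a similar level by its interval. Its DNA-binding partner Tead1 had 10.3, 9.67, 14.3 and 7.76 CPM in livers and 232, 213, 252 and 224 CPM in quadriceps (-4.45, SE 0.18), and the upstream genes Sav1 and Nf2 were lower by -2.52 (SE 0.14) and -1.63 (SE 0.13).

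Within a tissue, different genes varied between libraries. Among livers the widest spread was in Egr1, an immediate-early gene, with 7.77, 87.2, 8.85 and 29 CPM (coefficient of variation 112%). Bcl6, a repressor of lipid and growth hormone programmes, had 83.7, 10.3, 10.6 and 102 CPM, and overlapped the 83.9 to 138 CPM of quadriceps (-1.14, SE 0.81, adjusted p = 0.24). Rgs16, a regulator of G protein signalling, had 369, 106, 534 and 130.1 CPM in livers and at most 0.808 CPM in quadriceps. Low and high livers were not the same for these genes: Bcl6 was high in replicates 1 and 4, Rgs16 and Lpin1 in replicates 1 and 3. Among quadriceps the 10 widest were all slow-fibre or stretch-related genes, from Csrp3 (127%), Myl2 (119.7%) and Myl3 (119%) to Myom3 (103%).

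Each tissue also held traces of the other's transcripts. Over the 72 genes of the muscle lists, the sum in GFP livers 1 to 4 was 0.0506, 0.0897, 0.198 and 0.0869% of the mean sum in GFP quadriceps. Without Csrp3 and Tpm3, which were present in every liver, the 70 other genes gave 0.0336, 0.0691, 0.178 and 0.0691% (0.0874 ± 0.0626, SD, n = 4), a choice made after seeing the data. Over the 34 plasma protein genes, the sum in GFP quadriceps 1 to 4 was 0.0759, 0.0917, 0.086 and 0.0893% of the mean sum in GFP livers. Over the 72 and the 34 genes, the traces averaged 0.106 ± 0.0637% in livers and 0.0857 ± 0.00695% in quadriceps (SD, n = 4 each), and most variable in livers, where replicate 3 was the highest. Whether they came from the tissue itself or from handling was not tested. Csrp3 did not follow them, since its 20.7 to 22.9 CPM was even across livers whose muscle transcripts differed several-fold.

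**Figure D5:**
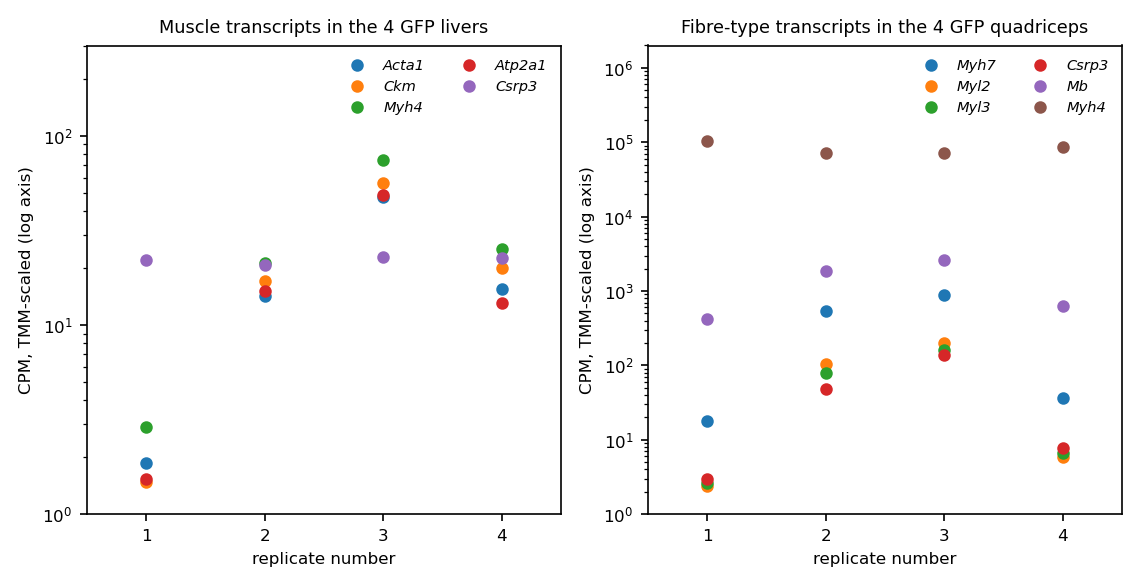
CPM on log axes of 5 muscle genes in each GFP liver (left panel) and of 6 muscle genes in each GFP quadriceps (right panel), by replicate number. In livers, Acta1, Ckm, Myh4 and Atp2a1 move together and are highest in replicate 3, while Csrp3 stays at 20.7 to 22.9; in quadriceps, Myh7 is at 530.5 and 891 in replicates 2 and 3 against 17.6 and 35.9 in replicates 1 and 4, and Myh4 stays between 71897 and 102974.

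The same tissue comparison was then set beside the one in mice given Yap1S5A, by the interaction of tissue and vector over all 16 libraries. The interaction was positive in 3481 of 13669 genes (25.5%) and negative in 3075 (22.5%). The larger direction turned with RLE factors (3138 positive, 3558 negative), without Yap1S5A liver replicate 1 (2921 and 3890) and without Yap1S5A liver replicate 2 (2820 and 3617), so neither direction is read as the larger. In Yap1S5A mice, 5733 of 13491 genes (42.5%) were higher in liver and 5346 (39.6%) lower, and 7.13% were at least 32-fold higher and 4.74% at least 32-fold lower. Of the 946 genes at least 32-fold higher in GFP liver, 895 were in both the Yap1S5A fit and the interaction fit. Among these 895, 893 were also called higher in Yap1S5A liver and 0 lower. By the interaction, 424 of them had a smaller liver excess and 7 a larger one. Of the 784 at least 32-fold lower, 767 were in both fits. Among these 767, 751 were also lower in Yap1S5A liver and 6 higher, and 258 had a positive interaction and 31 a negative one. These classes were chosen on GFP libraries that also enter the interaction, so the tilt towards smaller differences is not independent of the choice. Plasma protein transcripts in quadriceps were at 0.288, 0.171, 0.126 and 0.139% of their GFP liver mean in Yap1S5A mice, above the 0.0759 to 0.0917% in GFP mice. Muscle-list transcripts in livers were at 0.107 to 0.173% of their GFP quadriceps mean in Yap1S5A mice, within the 0.0506 to 0.198% in GFP mice. Their part in the smaller differences was not tested.

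For single genes, the tissue difference of Alb was 11.07 in Yap1S5A mice and 12.39 in GFP mice, which did not differ by the test (interaction -1.20, SE 0.89, adjusted p = 0.28), nor did those of Acta1 and Ckm (adjusted p = 0.40 and 0.25). Cps1 differed by 10.83 in Yap1S5A mice and 13.47 in GFP mice (interaction -2.52, adjusted p = 0.012), and Hnf4a by 10.08 and 12.33 (-2.13, adjusted p = 0.025). Cyp2e1 differed by 2.73 in Yap1S5A mice and 8.45 in GFP mice (-5.60, adjusted p = 8.4e-06). The muscle hexokinase Hk2 differed by -4.68 in Yap1S5A mice and -8.19 in GFP mice (3.66, adjusted p = 5.4e-10), and Gatm by 3.72 and 0.28 (3.58, adjusted p = 4.4e-07). Yap1 differed by -0.96 in Yap1S5A mice and -0.01 in GFP mice (-0.81, SE 0.15, adjusted p = 0.00015). Whether the counted Yap1 model takes up vector transcripts was not tested.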

How the data were processed

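Bulk RNA sequencing libraries of 4 GFP livers and 4 GFP quadriceps were compared; the 8 Yap1S5A libraries entered the interaction and 1 alternative. Per the submitters' processing notes, reads were processed with FastQC 0.11.5, STAR 2.4.2a and featureCounts from Subread 1.5.0 on mm10; strand setting and gene filter were not given in the sources used here. The deposited table holds raw read counts per gene (used for all tests), the authors' scaled expression values per gene (a score, scaled to an effective library size, used only to derive those sizes as an alternative) and, per the file headers, the exonic length in bases, another deposited value, used for RPKM. Depth ran between 13817718 and 16897004 counts.

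Counts were filtered with filterByExpr and fitted with edgeR 4.0.16 (quasi-likelihood test, TMM factors, Benjamini-Hochberg adjustment over all 12865 genes tested, threshold 0.05) in R 4.3.3 with limma 3.58.1; standard errors were derived from the same fits. Tables, exact counting intervals and figures were made with Python 3.11.15, pandas 2.3.3, numpy 2.4.6, scipy 1.17.1 and matplotlib 3.10.9. RPKM used TMM-scaled library sizes. A gene with no count in a tissue has a floor of 3 counts over its 4 libraries. Because the protocol has no molecular identifiers, the 95% intervals and the floors take in counting error alone. The scripts were tested on simulated counts. In 21 genes the symbol was repeated or turned into a date: those tested were kept in the fits and are not named. Some items, among them members of the counts given, are not reported here.

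Gene lists, isozyme pairs and markers were chosen with earlier results of these data known. Genes were named by rule: the 12 largest differences and 12 highest levels per tissue, the 4 highest members per list and up to 5 against its direction, isozymes, reference genes, the 10 highest at a similar level and the 10 most variable per tissue; other list genes stand in counts. Tpm3 and the 9 genes of the vector comparison were singled out after their values were seen. Alternatives were other scalings (RLE, upper-quartile, library size alone, deposited sizes, without Rn45s), no filter, DESeq2 1.42.0, all 16 libraries, a replicate block, a length trend and each replicate left out. Promoters came from RefSeq (GRCm38.p6) and were matched by symbol and start.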

Additional observations from a re-analysis of the deposited data

Results flagged for a closer look

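Dixon's test for a sample far from the others was run in 628 groups of 4 libraries, and 35 groups passed its 95% critical value. The groups were named genes with a mean of at least 1 CPM, isozyme shares, the share of counts taken by Rn45s, and the shares of the most abundant genes with Rn45s left out. Chance would flag about 1 group in 20 if the groups were independent and not chosen by their spread. Some genes were named for wide spread in these libraries, and genes and shares overlap, so the number is not set against chance. Of the flags, 13 lay in GFP liver replicate 3 and 6 in GFP quadriceps replicate 3, against 1 to 3 in each other library. In GFP liver replicate 3, Mb had 4.61 CPM (others 0.835 to 1.26), Pvalb 7.58 (1.09 to 2.17), Romo1 78.9 (20.9 to 24.1) and Sds 586 (184 to 252). The same library was low for Acsm1 at 396 (414 to 415), Alas2 at 86.7 (112 to 115), Cox8a at 108 (128 to 130.2), Serpina3k at 6474 (9757 to 10416) and Srpr at 136 (185 to 192). Its shares of the first form were low for phosphorylase kinase gamma at 98.6% and cytochrome c oxidase subunit 8 at 99.3%. They were also low for uncoupling protein at 99.3% and caveolin at 93.2%. The other livers held 99.7% or more in each of these pairs. Mb, Pvalb and the second members of these pairs are muscle transcripts, and this library held the most muscle transcripts of the GFP livers; their part in these values was not tested. Romo1, which encodes a small mitochondrial protein, and Sds, the serine dehydratase, are not muscle markers.

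Single livers stood apart for Apoa2 (4427 CPM) and Ppp1r3b (299) in replicate 1, both high; for Col3a1 (51.6), Hspa5 (781) and Mup20 (5706) in replicate 2, all high; and in replicate 4 for Bpgm (15.4, high) and Etfa (239, low). Ppp1r3b, of hepatic glycogen storage, had 163 to 176 CPM in the other livers. Among quadriceps, replicate 1 stood apart for Hspa5 (124, low) and Mup3 (3.82, high), and replicate 2 for Actb (215), Eng (81.8) and Thbs4 (217), all high. Replicate 3 stood apart for Hoxc9 (7.42), Mir6236 (477) and Suclg2 (45.1), all high, for Tbx15 (306, low), for the phosphorylase kinase alpha share (1.17%, high) and for the phosphoglucomutase share (99.8%, low). Replicate 4 stood apart for Gamt (15.6, high).

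The tissue difference itself differed between the vectors, by the interaction test in edgeR, for Cps1 (-2.52), Hnf4a (-2.13), Yap1 (-0.81), Hk2 (3.66), Cyp2e1 (-5.60) and Gatm (3.58), on the log2 scale as Yap1S5A minus GFP. Over all genes, 3481 interactions were positive and 3075 negative.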

How the results depend on the processing

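The numbers of genes higher and lower in liver, at a similar level and with an interaction, the isozyme counts and the list medians stayed within 1.5 times of their value, or kept their sign, under each of the alternatives run. The larger direction of the interaction turned with RLE factors (3138 positive and 3558 negative). For 322 named genes under 19 settings (6117 pairs, since Rn45s has none without itself), 5999 kept direction and call, 55 lost the call, 61 gained it and 2 turned round without GFP quadriceps replicates 2 and 3, a setting chosen after seeing the data: Csrp3, at 2.02, and Tpm3, at 1.34. With upper-quartile factors 4523 genes were higher and 5608 lower, and with library size alone 5391 and 4674, against 5144 and 4993; the split of higher against lower calls thus moved with the scaling. DESeq2 called 5255 higher and 5208 lower. The 4 GFP livers and 4 GFP quadriceps carry the same numbers, and same-numbered libraries may come from the same mouse. Their deviations from their group means correlated at 0.006, 0.054, 0.073 and -0.006. Deviations in different tissues of a mouse need not correlate, so these values cannot settle the pairing. The main fit took the libraries as unpaired. A fit with the replicate number as a block gave 5043 higher and 4927 lower, with 9902 of the 10137 calls kept in direction; Bdh1 lost its call (3.50, adjusted p = 0.062). Taking out a trend with gene length turned 5 calls round among all genes. Depth limits on-off genes: their folds are floors set by 3 counts.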

Other observations

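Ass1, the argininosuccinate synthase of the urea cycle, is known as an abundant hepatocyte gene, but its counted model (chr2:31470270-31520670, mm10) had only 1.54, 3.28, 5.12 and 0.909 CPM in GFP livers and no count in GFP quadriceps. The enzyme of the next step, Asl, had 743, 594, 1212 and 667 CPM in GFP livers. How the counting treated reads of Ass1 was not tested. The major urinary protein gene Mup1 had a coefficient of variation of 76.9% among GFP livers and no count in GFP quadriceps, at least 714-fold higher in liver; it belongs to a family of near-identical copies.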
